A study of Mus musculus with 22 samples.

Results

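Snora16a and Snora44 are small nucleolar RNAs (snoRNAs) of the H/ACA class that lie, in this order, within the mouse non-coding gene Snhg12 on chromosome 4. They were found by matching the RefSeq transcript ID of each row, without its version and probe offset, to the mouse symbol, and they are 2 of the 72 features of an nCounter code set, of which 34 matched a symbol. On this platform colour-barcoded probes bind the RNA directly and are counted one by one, with no amplification step. The other snoRNAs that RefSeq places in Snhg12, Snora61 and Snord99, and the spliced host RNA itself matched no row and were not analysed here.

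The 22 samples form 7 groups. They are cardiomyocytes at day 16 (CM, n = 3), obtained from embryonic stem cells (ESCs) of a line labelled aMHC-puro through embryoid bodies and puromycin selection, and ESCs of that line at day 0 (n = 3); ESC sets B and A of a retinoic acid experiment (n = 3 each); spermatogonial stem cells (SSC, n = 4), germline cells of the testis that renew themselves; RAW264.7, a macrophage line (n = 3); and NIH3T3, an embryonic fibroblast line (n = 3). The labels of the retinoic acid samples contradict each other. Set B is titled as plain ESCs but described as having had retinoic acid until T = 6, and set A is titled and annotated as treated but described as untreated at T = 0, so the sets were compared as B against A with no direction of treatment. The table holds H/ACA snoRNAs only, so the labelled cell types could not be checked against their markers. No source used here says that the CM samples are free of other cells. The SSC samples 2, 3 and 4 carry the same number in their descriptions, and a shared source cannot be told from the labels.

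Mammalian H/ACA snoRNAs are usually cut from introns of longer host transcripts and assembled with dyskerin, Nop10, Nhp2 and Gar1 into particles that convert chosen uridines of ribosomal RNA to pseudouridine. In a host such as Snhg12 the introns rather than the exons carry the conserved RNA, and several snoRNAs can come from 1 precursor, after which each is trimmed, bound and turned over on its own. Snora44 is known, from its human counterpart, as a guide for 18S rRNA, the RNA of the small ribosomal subunit. Many non-coding snoRNA hosts belong to the class of genes whose transcripts start with a run of pyrimidines.

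Because both snoRNAs lie in 1 host gene, the start region of Snhg12 is shown. It covers 250 bases before and 50 bases from the annotated start (RefSeq, build GRCm38.p6, chr4:132308428-132308727, plus strand), with 3 stretches in capitals that were chosen after the sequence was read.

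Snhg12 start region: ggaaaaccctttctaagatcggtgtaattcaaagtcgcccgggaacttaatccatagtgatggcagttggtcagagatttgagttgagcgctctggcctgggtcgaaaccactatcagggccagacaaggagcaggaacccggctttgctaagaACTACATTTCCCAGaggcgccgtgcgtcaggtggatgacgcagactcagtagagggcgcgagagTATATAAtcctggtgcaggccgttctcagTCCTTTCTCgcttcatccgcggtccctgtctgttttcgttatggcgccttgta

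The first capitals are a match to ACTACANNTCCCAG, a core of the sequence bound by the zinc finger factor Znf143, from base -96 to base -83, where base 1 is the annotated start. Searched on both strands, these letters occur in 1.03% of 32817 RefSeq start regions of the same length. The second are TATATAA, resembling the core element bound by the general factor TBP, at bases -32 to -26, which 3.25% of start regions hold on either strand. The third are a run of 9 pyrimidines over the annotated start, from base -3 to base 6, and 4.86% of start regions hold a run of at least 9 between 10 bases before and 11 bases after the start. Of the 7 non-coding hosts of measured snoRNAs 6 matched the table, and among these the first and second motif were found in Snhg12 alone, while Snhg9 also had a run of 9. Matches of letters are a description of the sequence and not of bound factors.

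The deposited values are called normalized counts here. Totals ran from 1045169 to 1668320 normalized counts per sample, and every CM and SSC total lay below all totals of the other groups. Precision at these levels depends on the spread between samples rather than on counting. Nothing in the labels tells separate cultures or animals from repeat measurements, so p-values cover only the scatter among the samples at hand, and that scatter can be technical. In bulk samples a change in RNA per cell and a change in the mix of cells cannot be told apart. A set of 5 features is blank in the 10 SSC, RAW264.7 and NIH3T3 samples and filled in the 12 others, so the table has a part with and a part without blanks, and whether these were run or scaled apart from each other was not given in the sources used here. ESC day 0 replicate 1 stood apart most and was the farthest of its group from the group median in 52 of 67 features without blanks, against 10 and 5 for replicates 2 and 4. Set B replicate 1, which had the highest total, was the farthest in 41 of 67, against 15 and 11 for replicates 4 and 3.

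Snora16a was high in ESC day 0 and set A and low in cardiomyocytes and SSCs. It had 54314, 45589 and 53148 normalized counts in the 3 CM samples, against 69234, 88160 and 88096 in the ESC day 0 samples. It had 67658, 59684 and 60336 in ESC set B, against 87272, 87113 and 87647 in set A, the tightest of all groups with an SD of 274. The 4 SSC samples had 59246, 53384, 46974 and 40197, against 62256, 75854 and 70988 in RAW264.7 and 67530, 69084 and 77147 in NIH3T3. All CM and SSC samples thus lay below every sample of the other 5 groups, though SSC replicate 1 lay close under set B replicate 4.

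Snora44 followed the same outline with wider scatter. The CM samples had 25082, 19084 and 23430 normalized counts, against 67739, 44144 and 44823 in ESC day 0. Set B had 32954, 30564 and 36065, against 41312, 42931 and 47426 in set A. The SSC samples had 33615, 24082, 25734 and 20284, against 40823, 41193 and 36951 in RAW264.7 and 35615, 29497 and 34876 in NIH3T3. CM samples were low throughout, and SSC replicate 1 reached the range of NIH3T3 and set B. ESC day 0 replicate 1 was the highest of all 22 samples although the same sample was the lowest of its group for Snora16a.

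**Figure D1:**
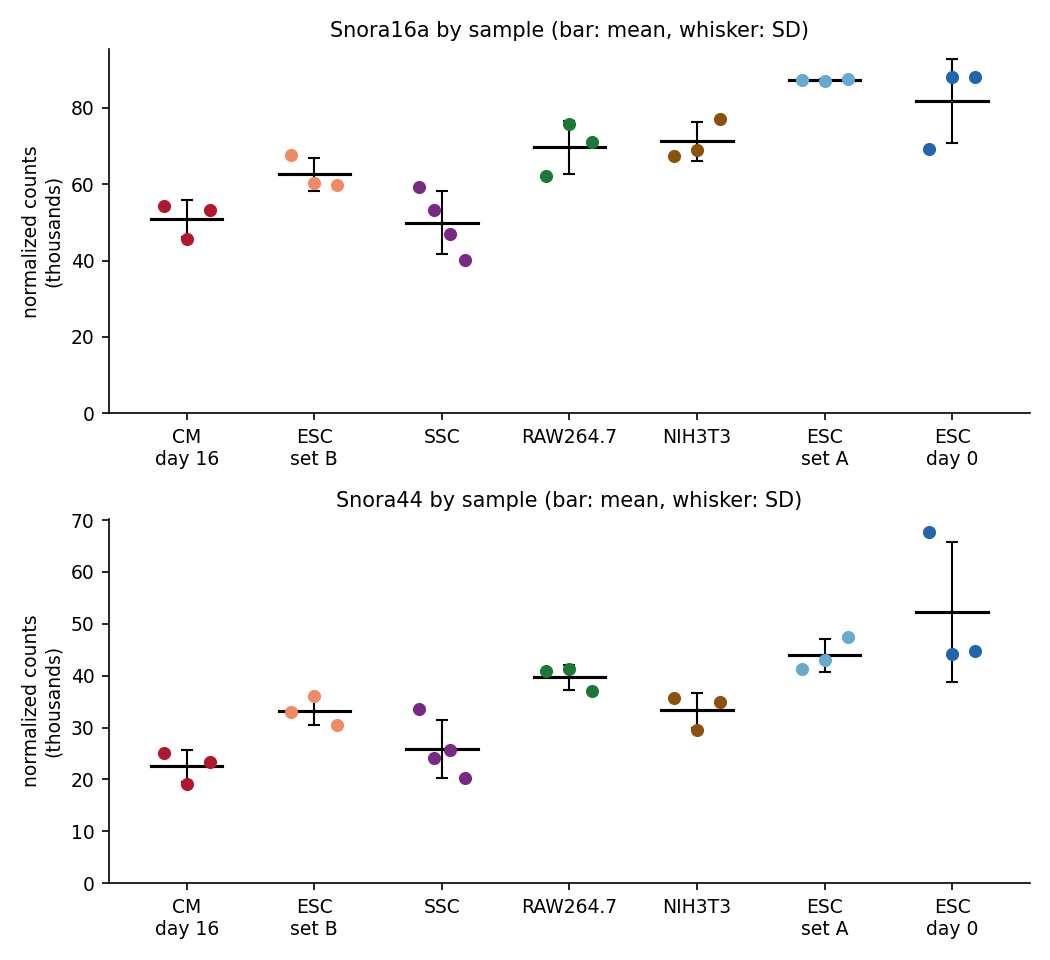
Normalized counts of Snora16a, above, and Snora44, below, in each sample of the 7 groups; points are samples, bars group means and whiskers SD. The CM and SSC groups are at the low end of both panels, and 1 ESC day 0 sample, replicate 1, is low for its group in Snora16a and the highest of all in Snora44.

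In order of group means, Snora16a stood at 49950 ± 8209 normalized counts in SSC (SD, n = 4), 51017 ± 4737 in CM, 62559 ± 4427 in set B, 69699 ± 6890 in RAW264.7, 71254 ± 5163 in NIH3T3, 81830 ± 10909 in ESC day 0 and 87344 ± 274 in set A (n = 3 each). Snora44 stood at 22532 ± 3098 in CM, 25928 ± 5609 in SSC, 33195 ± 2758 in set B, 33329 ± 3340 in NIH3T3, 39656 ± 2350 in RAW264.7, 43890 ± 3167 in set A and 52235 ± 13431 in ESC day 0. The 2 orders differ only by exchanges of neighbours: SSC with CM, RAW264.7 with NIH3T3, and set A with ESC day 0. From the lowest to the highest group the span was 1.75-fold for Snora16a, the 63rd widest of 67 features without blanks, and 2.32-fold for Snora44, the 42nd widest. The median span of the 67 features was 2.54-fold.

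A fit with limma over all 22 samples compared the 21 pairs of groups on log2(value + 1), with p-values adjusted by Benjamini-Hochberg over all features and pairs. Of 1407 such comparisons 47% passed at an adjusted p of 0.05, and the shares of the snoRNAs were near this, with 11 of 21 pairs for Snora16a and 10 of 21 for Snora44. After median centring 3 and 2 pairs passed, after mean centring 7 and 9, and after quantile normalization 1 and 8, so the number of calls depends on the scaling. In the F-test over the 7 groups both passed (adjusted p 8.1e-05 for Snora16a and 5.7e-05 for Snora44), as did 89.6% of 67 features. No neighbours in either order passed the threshold, although samples did not overlap between CM and set B for Snora16a (adjusted p 0.099). The same held for Snora44 between RAW264.7 and NIH3T3 (adjusted p 0.27) and between RAW264.7 and set A (adjusted p 0.55). For Snora16a, CM and SSC were each lower than RAW264.7, NIH3T3, set A and ESC day 0, SSC was also lower than set B, and set B was lower than set A and ESC day 0. The widest of these differences was SSC minus set A, at -0.82 ± 0.13 (SE, adjusted p 8.7e-05). For Snora44, CM was lower than set B, RAW264.7, NIH3T3, set A and ESC day 0, SSC was lower than RAW264.7, set A and ESC day 0, and set B and NIH3T3 were lower than ESC day 0. The widest was CM minus ESC day 0, at -1.19 ± 0.18 (adjusted p 4.6e-05). Set A and ESC day 0, both labelled as ESCs, had differences that missed the threshold, 0.10 ± 0.14 for Snora16a (adjusted p 0.59) and -0.22 ± 0.18 for Snora44 (adjusted p 0.34). Pairs that set SSC, RAW264.7 or NIH3T3 against CM or an ESC group, SSC minus set A among them, cross the parts of the table by blanks. In those pairs the group and the part of the table cannot be told apart.

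The series set 4 cell types side by side: SSC, RAW264.7, NIH3T3 and ESCs at day 0. In a limma fit of these 13 samples both snoRNAs passed the moderated F-test, as did 91% of the 67 features (adjusted p 0.0019 for Snora16a and 0.00073 for Snora44). Both were lower in SSCs than the mean of the other 3 types, Snora16a by 1.49-fold (log2 difference -0.58 ± 0.12, adjusted p 0.00042) and Snora44 by 1.60-fold (-0.67 ± 0.14, adjusted p 0.00056). In this contrast 83.6% of features passed, with 43.3% of features higher and 40.3% lower. The 4 SSC samples of Snora16a lay below all 9 others, which held for 38.8% of features in one direction or the other, while Snora44 overlapped with NIH3T3. With samples scaled to a common total the differences were -0.30 for Snora16a and -0.39 for Snora44, and both remained past the threshold. Under quantile normalization the Snora16a difference was -0.03 (adjusted p 0.82), while that of Snora44 remained past the threshold. SSC samples 2, 3 and 4 may share a source. With these averaged the limma differences were -0.49 for Snora16a and -0.54 for Snora44 (adjusted p 0.0084 and 0.019). Of the other types, ESC day 0 belongs to the part of the table without blanks. In a limma fit without the ESCs, SSC minus the mean of RAW264.7 and NIH3T3 was -0.51 for each snoRNA. The adjusted p was 0.0017 for Snora16a and 0.0028 for Snora44.

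ESCs at day 0 were above the mean of the other types for both snoRNAs, with 1.30-fold for Snora16a (0.38 ± 0.13, adjusted p 0.021) and 1.59-fold for Snora44 (0.67 ± 0.16, adjusted p 0.0020), where 55.2% of features passed, with 29.9% higher and 25.4% lower. Samples did not overlap for Snora44, as for 17.9% of features. Because only the ESCs belong to the part that has no blanks, this contrast and the part of the table cannot be told apart. The Snora16a call was lost after median centring (0.18, adjusted p 0.19), mean centring (adjusted p 0.056), scaling to a common total (adjusted p 0.19), quantile normalization (adjusted p 0.36) and without ESC replicate 2 or 4 (adjusted p 0.11 each). That of Snora44 was lost under quantile normalization (adjusted p 0.056) and its difference was 0.46 without ESC replicate 1, the sample that stood apart.

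Neither snoRNA set RAW264.7 or NIH3T3 apart. In RAW264.7 the differences from the mean of the other types were 0.08 ± 0.13 for Snora16a and 0.17 ± 0.16 for Snora44 (adjusted p 0.65 and 0.38), in a contrast where 46.3% of features passed, with 34.3% higher and 11.9% lower. In NIH3T3, where 59.7% passed, with 13.4% higher and 46.3% lower, they were 0.12 ± 0.13 and -0.17 ± 0.16 (adjusted p 0.45 and 0.40). Samples overlapped with the other types for both, while 16.4% of features in RAW264.7 and 19.4% in NIH3T3 had no overlap. The median difference over all features was 0.20 in RAW264.7 and -0.28 in NIH3T3. Relative to mean-centred samples Snora16a was higher in NIH3T3 (0.38, adjusted p 0.019), and without ESCs Snora44 was higher in RAW264.7 than the mean of SSC and NIH3T3 (0.44, adjusted p 0.016).

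**Figure D2:**
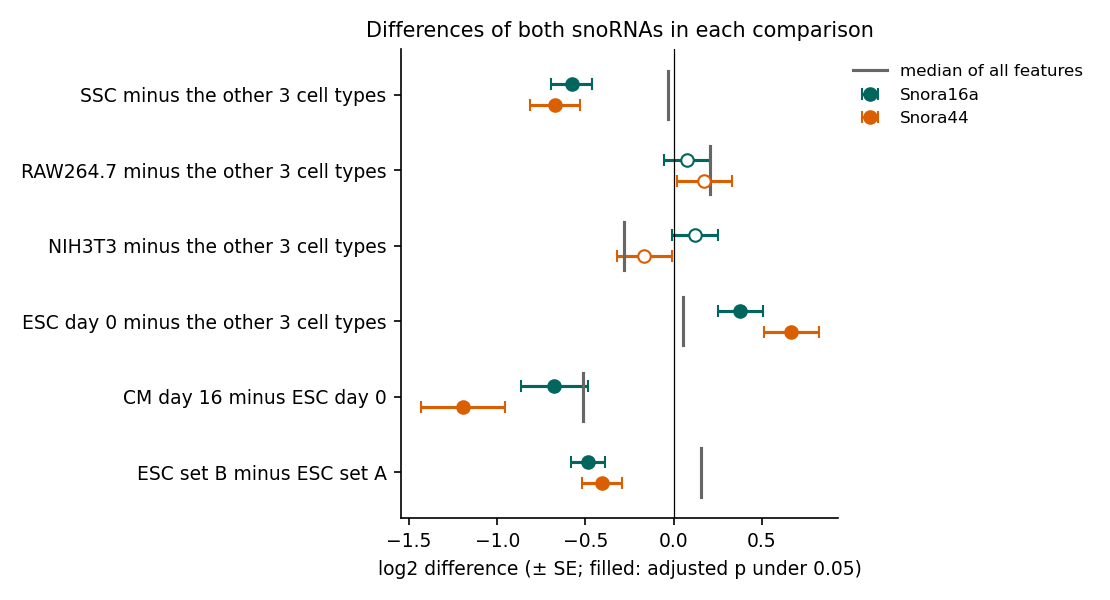
Log2 differences (x axis) of both snoRNAs in 6 comparisons, with SE as whiskers, filled points for an adjusted p under 0.05 and grey ticks for the median over all features tested. Both points lie left of 0 for SSC, CM and set B, and the tick for CM lies at -0.51.

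The next comparison followed the differentiation of ESCs to cardiomyocytes. Both snoRNAs were lower at day 16, Snora44 by 2.29-fold (-1.19 ± 0.24, adjusted p 0.026) and Snora16a by 1.60-fold (-0.68 ± 0.19, adjusted p 0.038), in a limma fit of the 6 samples in which 30.6% of 72 features passed and 29.2% were lower. Samples of the 2 groups did not overlap for either snoRNA, as for 52.8% of features. The median difference of all features was -0.51, so Snora16a lay close to the general shift, as the 28th lowest of 72, and Snora44 beyond it as the 11th lowest. As a share of each sample's total, Snora44 made up 1.86% ± 0.16 at day 16 and 3.32% ± 0.75 at day 0, and Snora16a 4.22% ± 0.27 and 5.25% ± 0.86 (SD, n = 3 each).

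Neither fall passed once samples were put on a common scale. Scaled to a common total the differences were -0.30 for Snora16a and -0.82 for Snora44 (adjusted p 0.31 and 0.056), and after median centring 0.14 and -0.38 (adjusted p 0.85 and 0.47). Without ESC day 0 replicate 1 they were -0.79 and -0.99 (adjusted p 0.067 for each), so that the gap between the snoRNAs shrank from both sides. Of the 6 samples only the omission of CM replicate 1 left both calls in place. With replicate number as a block Snora16a did not pass (adjusted p 0.11).

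Set B was lower than set A for both snoRNAs. The difference was -0.48 ± 0.10 for Snora16a (1.40-fold, adjusted p 0.012) and -0.40 ± 0.11 for Snora44 (1.32-fold, adjusted p 0.035), against a median of 0.16 over all features. In this fit 45.8% of 72 features passed and 16.7% were lower, and set B and set A had no overlap for either snoRNA, as for 55.6% of features. Both calls were lost after median centring (adjusted p 0.42 and 0.55) and after mean centring, where the differences were -0.58 for Snora16a and -0.50 for Snora44 (adjusted p 0.072 and 0.12). Both were also lost with replicate number as a block (adjusted p 0.11 and 0.18), and without any 1 of the set A samples, and that of Snora44 also without set B replicate 4 (adjusted p 0.076).

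The changes of both models were then set against each other in 12 samples. CM minus day 0 less set B minus set A was -0.19 ± 0.19 for Snora16a (adjusted p 0.47) and -0.79 ± 0.26 for Snora44 (adjusted p 0.053), where 23.6% of 72 features passed and the median was -0.64. That of Snora44 passed when the fit held all 7 groups (adjusted p 0.021), with features averaging at least 100 (adjusted p 0.048) and without CM replicate 1 (-0.87, adjusted p 0.0496), and under none of the 4 other scalings (adjusted p 0.47 to 0.99). That of Snora16a turned positive under median, mean, quantile and total scaling, from 0.25 to 0.47, and passed under none.

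The ratio of Snora16a to Snora44 takes out whatever scales both alike. Its level depends on both probes and is no molar ratio, so only its variation between samples was read. It was 2.17, 2.39 and 2.27 in CM, against 1.02, 2.00 and 1.97 in ESC day 0, and 2.05, 1.95 and 1.67 in set B, against 2.11, 2.03 and 1.85 in set A. It was 1.76, 2.22, 1.83 and 1.98 in SSC, against 1.53, 1.84 and 1.92 in RAW264.7 and 1.90, 2.34 and 2.21 in NIH3T3. Leaving aside the 1.02 of ESC day 0 replicate 1, the other 21 samples lay between 1.53 and 2.39, and all groups overlapped with at least 1 other.

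**Figure D3:**
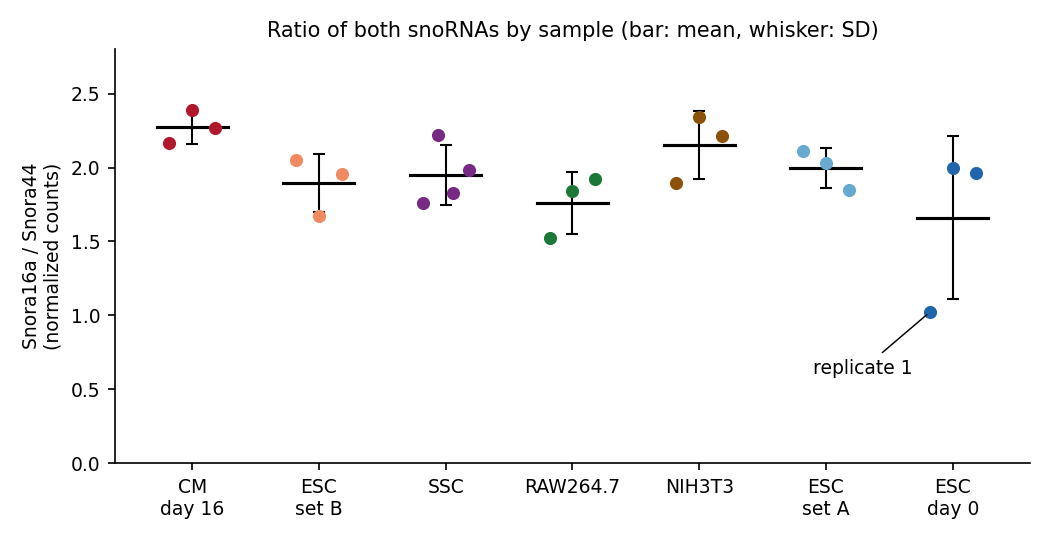
Ratio of Snora16a to Snora44 (normalized counts) in each sample of the 7 groups, with bars for group means and whiskers for SD. Of 22 samples 21 lie between 1.53 and 2.39, and ESC day 0 replicate 1 lies at 1.02.

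No difference of the ratio between groups passed. Group means ran from 1.66 ± 0.55 in ESC day 0 to 2.27 ± 0.11 in CM. Over the 7 groups the F statistic of the log2 ratio was 1.56 (permutation test with 100000 resamples, p = 0.19, adjusted p 0.28 over 6 ratio tests), and within the part of the table with blanks and the part without blanks permutation gave p = 0.16 and 0.18. After quantile normalization the permutation test over the groups with blanks gave an adjusted p of 0.067, against 0.28 without it. The log2 ratio of SSC minus the other types was 0.10 ± 0.14 (SE, exact two-sided permutation test, p = 0.68), or 0.53 ± 0.20 after quantile normalization (permutation, adjusted p 0.067), and that of set B minus set A -0.08 ± 0.11 (exact, p = 0.60). For CM minus ESC day 0 it was 0.52 ± 0.32 with no overlap of samples (exact, p = 0.10, the smallest value 3 samples against 3 allow), and 0.20 ± 0.04 without ESC day 0 replicate 1. Missing the threshold does not show that the ratios were equal.

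Among the 4 pairs of snoRNAs that share a host, this pair had the narrowest span of the ratio over group means, but not the narrowest ratio within groups. The median SD of the log2 ratio within groups was 0.15 for Snhg12, 0.12 for Kansl2, 0.071 for Snhg7 and 0.43 for Rps2. Over 22 samples r was 0.81 for Snhg12, 0.83 for Kansl2, 0.59 for Snhg7 and 0.54 for Rps2. The span of the ratio over the 7 group means was 1.43-fold, or 1.30-fold without ESC day 0 replicate 1. It was 1.70-fold for Snora34 and Snora2b of Kansl2 (1.39-fold without that sample) and 4.05-fold for Snora43 and Snora17 of Snhg7. For Snora64 and Snora78, which both lie in Rps2, it was 4.49-fold. Snora78 also lies in Snhg9, and which of these genes it comes from was not tested. Among all 2211 pairs of features the median span was 3.90-fold, and 0.498% of pairs had a narrower one than the Snhg12 pair, or 0.0452% without ESC day 0 replicate 1. These spans are a description of pairs that share features and samples, with no test. Each snoRNA alone also spanned less than the median feature, 1.75-fold for Snora16a and 2.32-fold for Snora44 against 2.54-fold. The pairs were not matched for this. The sample left out also had the lowest ratio of the Snhg12 pair, 1.02.

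**Figure D4:**
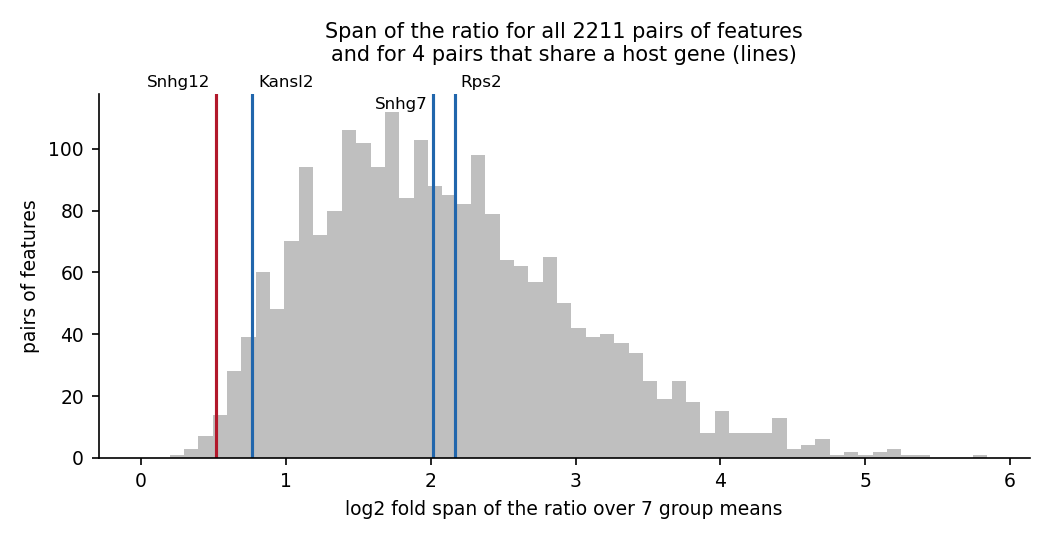
Histogram of the log2 fold span of the ratio over 7 group means for 2211 pairs of features (y axis, number of pairs), with lines for the 4 pairs that share a host gene. The lines for Snhg12 (1.43-fold) and Kansl2 (1.70-fold) lie in the left tail, and those for Snhg7 (4.05-fold) and Rps2 (4.49-fold) in the middle.

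Sample by sample, Snora16a and Snora44 were high and low together across groups. Pearson's r on the log2 scale was 0.81 and Spearman's rho 0.87 over 22 samples, against a median r of 0.15 over all pairs of features, and 96.3% of pairs had a lower r. The samples are clustered in 7 groups and share the overall level of each sample, so these are descriptions with no p. The r was 0.85 in the 10 samples of the part with blanks, 0.79 in the 12 of the part without, 0.74 after mean centring and 0.93 over the 7 group means. Within the parts 89.6% and 88.8% of pairs had a lower r. It was 0.58 after mean centring in the part without blanks and 0.28 after quantile normalization, above 71.9% of pairs. Without SSC replicate 4 and CM replicate 2, the samples farthest from the median of Snora16a, it was 0.73. Both snoRNAs also followed the total of the other 65 features (r = 0.69 for Snora16a and 0.77 for Snora44).

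Within groups the link was weaker and depended on 1 sample. Deviations from group means had r = 0.22, near the median of all pairs (0.21), and both snoRNAs deviated to the same side in 12 samples and to opposite sides in 10. In ESC day 0 replicate 1 Snora16a deviated by -0.23 and Snora44 by 0.40 on the log2 scale. Without that sample the r of the deviations was 0.68, above 84.9% of pairs. Spearman's rho of the deviations was lower, at 0.44 without that sample and 0.13 with it. The r over the remaining 21 samples was 0.91, above 99.2% of pairs. That sample had the lowest ratio of this pair, so leaving it out favoured a high r.

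**Figure D5:**
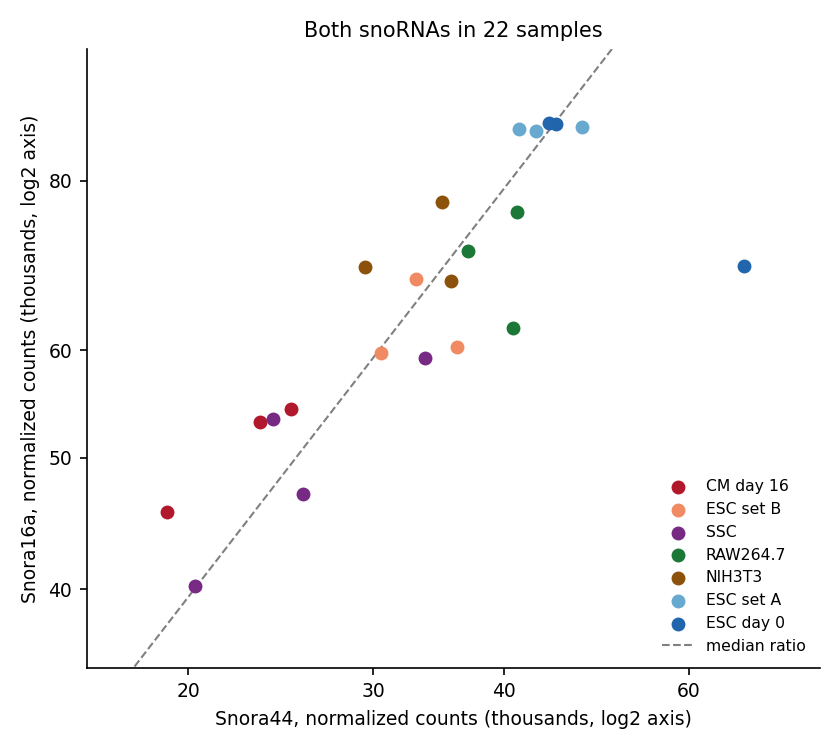
Snora16a (y axis) against Snora44 (x axis) in 22 samples, both as normalized counts on log2 axes, coloured by group, with a dashed line at the median ratio. The samples follow the line from SSC and CM at the lower left to ESC day 0 and set A at the upper right. Set B lies between, with RAW264.7 and NIH3T3, and ESC day 0 replicate 1 stands off to the right.

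Snora44 was the feature most like Snora16a among the 66 others by Pearson's r over 22 samples (0.81). After it came 2 features without a RefSeq symbol, then Snora43 of Snhg7 (0.76) and 1 more such feature. For Snora44 the closest was Snora33 of the ribosomal protein gene Rps12 (0.82), then Snora16a, 2 features without a symbol and Snora17 of Snhg7 (0.74). After mean centring, which sets every sample to the same mean log2 value, Snora44 ranked 4 for Snora16a and Snora16a ranked 3 for Snora44, with Snora43 among the 5 closest of both. Without ESC day 0 replicate 1, each was the closest to the other after mean centring. That sample had the lowest ratio of this pair, so leaving it out favoured a high rank. Snora44 for Snora16a and Snora16a for Snora44 ranked 12 and 9 within the part with blanks, 12 and 11 within the part without, and 11 and 22 after quantile normalization.

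Other snoRNAs of non-coding host genes give the setting. Without the Snhg12 pair 7 were measured, including Snora78, which lies in Snhg9 and in Rps2, and Snora26 of Dancr. In SSCs 6 of the 7 were lower and 1, Snora78, was higher, where 40.3% of all features were lower and 43.3% higher (median -0.93, against -0.03 over all features). Snora43, Snora24 of Snhg8 and Snora73a of Snhg3, a snoRNA that acts in cleavage of the rRNA precursor, were lower by more than the Snhg12 pair (-1.96, -1.22 and -1.17), as was Snora26 (-0.93), while Snora17 (-0.40) and Snora74a of Snhg4 (-0.33) were lower by less. In ESC day 0 4 of the 7 were higher and 0 lower, where 29.9% of features were higher and 25.4% lower. At day 16 3 of the 7 were lower than at day 0 and 0 higher, where 29.2% of features were lower, and their median of -0.54 was near that of all features (-0.51). Among them Snora24 had a difference of -1.19, as had Snora44.

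In set B against set A 1 of the 7 passed, Snora43, which was lower (-1.84 ± 0.10, adjusted p 0.00013), where 45.8% of features passed and 16.7% were lower. The other 6 had differences from -0.90, for Snora24 (adjusted p 0.13), to 0.25, for Snora78 (adjusted p 0.28). Snora17, which shares its host with Snora43, was at -0.07 ± 0.10 (adjusted p 0.65). The 2 Snhg12 snoRNAs thus stood at -0.48 and -0.40, against -1.84 and -0.07 for the Snhg7 pair, and how the pairs differ in this was not tested. Of 12 snoRNAs in ribosomal protein genes, Snora78 included, 7 were higher and 2 lower in SSCs, where 43.3% of features were higher and 40.3% lower. At day 16 3 of the 12 were lower and 0 higher, where 29.2% of features were lower, and in set B 3 were higher and 2 lower, where 29.2% were higher and 16.7% lower, so both were near the shares of all features.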

How the data were processed

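Values of 72 H/ACA snoRNA features in 22 samples came from the deposited table as a signal, here called normalized counts. Per the labels' protocols, RNA came from a Trizol extraction followed by DNase I and column clean-up; software, normalization and background treatment are not given in the sources used here. Within each sample 100% of values were whole multiples of 1 step between 0.900 and 1.22 (tolerance 0.02), as counts times 1 factor per sample would be. Features were named through the RefSeq table of GRCm38.p6, and no build is named for the data. limma 3.58.1 (R 4.3.3; lmFit, eBayes, two-sided) was run on log2(value + 1) over all features without blanks in the fit, with Benjamini-Hochberg adjustment and a threshold of 0.05. The limma fit was tried on simulated data for the SSC contrast only, with independent noise and no shared level per sample. Ratio tests permuted sample labels (numpy 2.4.6). Alternatives were other scalings, pseudocounts, a filter, a wider fit, replicate blocks and omitted samples. Replicate numbers were not taken as pairs in the main fits. Deviations of same-numbered samples had r from -0.63 to 0.33, which cannot decide whether the numbers mark pairs, because the groups are small. Named were both members, features of non-coding hosts, same-host pairs and the 5 closest features. Members and lists were chosen with earlier results of these data known.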

Additional observations from a re-analysis of the deposited data

How the results depend on the processing

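Values are log2 differences of Snora16a and then Snora44 unless 1 is named, with adjusted p in limma; the cause of each change was not tested. For CM minus ESC day 0 they were 0.14 and -0.38 after median centring (0.85 and 0.47), -0.18 and -0.70 after mean centring (0.56 and 0.064), -0.24 and -0.68 after quantile normalization (0.51 and 0.10) and -0.30 and -0.82 on a common total (0.31 and 0.056); leaving out 1 sample gave -0.79 to -0.60 and -1.30 to -0.99. For set B minus set A they were -0.33 and -0.25 after median centring (0.42 and 0.55), -0.58 and -0.50 after mean centring (0.072 and 0.12), while Snora44 was -0.42 after quantile normalization (0.054) and -0.40 with all 7 groups in the fit (0.067); leaving out 1 sample gave -0.54 to -0.45 and -0.47 to -0.35. Whether shared replicate numbers mark pairs is not given in the labels. With them as a block Snora16a was -0.68 for CM minus ESC day 0 (0.11). The snoRNAs were -0.48 and -0.40 for set B minus set A (0.11 and 0.18, or 0.089 and 0.12 with the numbers of the titles). The block gave 8 calls in place of 22 for CM, and 14 or, by title numbers, 15 in place of 33 for the sets.

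Among the cell types, Snora16a in SSC was -0.033 after quantile normalization (0.82; F-test 0.68). Snora16a in ESC day 0 was 0.18 after median centring (0.19), 0.30 after mean centring (0.056), 0.16 after quantile normalization (0.36) and 0.16 on a common total (0.19), and 0.32 to 0.50 with 1 sample left out; Snora44 was 0.34 after quantile normalization (0.056). Snora16a in NIH3T3 was 0.37 after median and 0.38 after mean centring (0.013 and 0.019), and Snora44 0.087 after median and 0.089 after mean centring and 0.064 without ESCs. Snora16a in RAW264.7 was -0.081 after median centring, -0.10 after mean centring, -0.13 after quantile normalization and -0.0093 on a common total, and Snora44 -0.0028 after mean centring and 0.44 without ESCs (0.016). The difference between the 2 effects of Snora16a was 0.47, 0.40, 0.28 and 0.25 after median, mean, quantile and total scaling. That of Snora44 was -0.79 with features averaging at least 100 (0.048) and with all 7 groups (0.021), and -0.90 to -0.59 with 1 sample left out.

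The log2 ratio was -0.0073 to 0.14 for SSC and -0.14 to 0.0064 for set B minus set A with 1 sample left out, turning sign without ESC day 0 replicate 1 and without set B replicate 3. In alternatives added after seeing the data, r of the snoRNAs was 0.58 after mean centring in the part without blanks and 0.93 over group means. Also among these, deviations from group means gave 0.22 (0.21 after mean centring). Without ESC day 0 replicate 1 the deviations gave 0.68, with Spearman's rho at 0.44. The planned quantile normalization gave 0.28. Pairs of groups called for Snora16a and Snora44 numbered 3 and 2 after median centring, 7 and 9 after mean centring and 1 and 8 after quantile normalization. Features called for CM minus ESC day 0 numbered 6, 0, 3 and 0 under median, mean, quantile and total scaling and 38 with all groups, against 22; for set B minus set A 20 under quantile normalization, against 33; for the difference between the 2 effects 0 under the 4 scalings and 31 with all groups, against 17. A planned negative binomial test on recovered whole counts was not run, because a check of units did not accept the recovered counts.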
